A study of Mus musculus with 6 samples.

Results

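ON bipolar cells are the retinal interneurons that answer an increase of light, and the genes described here encode their signalling machinery. The set consists of 10 genes (Grm6, Trpm1, Nyx, Gpr179, Rgs11, Rgs7, Gnao1, Gng13, Prkca and Pcp2), and its members were all array probes annotated to one of these symbols. That gave 17 of the 45281 probes, for 9 of the 10 genes, and Gpr179 was not analysed here. Signal was measured in retinal RNA from 3 wild-type samples (Jax WT in the labels) and 3 samples with a knockout of Vldlr, on Illumina mouse BeadChips with 1 array per sample. The labels give JAX as the background strain of both groups and no age, and do not say how Vldlr was disrupted. Whether each sample is a different animal is not stated, and the p-values therefore cover sample-to-sample spread that may be no more than technical. No strain is named beyond JAX, and genotype and any strain difference cannot be told apart. Vldlr is the gene of a lipoprotein receptor, and the question here is whether the ON pathway differs in retinas labelled as lacking it.

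In the dark, photoreceptors release glutamate onto the dendrites of ON bipolar cells, where the metabotropic receptor mGluR6, the product of Grm6, activates the G protein Go and keeps the cation channel TRPM1 closed. When light lowers the glutamate release, Go is switched off, TRPM1 opens and the cell depolarizes, so that the sign of the photoreceptor signal is inverted. The shut-off of Go is sped by the GTPase activators RGS7 and RGS11, which the orphan receptor GPR179 holds at the dendritic tips, and nyctalopin, the product of Nyx, helps to place TRPM1 there. In people, loss of GRM6, TRPM1, NYX or GPR179 causes complete congenital stationary night blindness.

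Arrays and groups were checked before the members were examined. Per array, between 41.3% and 46.3% of all probes had a detection p under 0.05, and the 3 bright Vldlr probes fell by 1.17 to 1.26 on the log2 scale in the knockout arrays (limma adjusted p = 0.00946 to 0.0334). How close they lie to the disruption is unknown, so that they check the label only in part, and 2 dim Vldlr probes were at 0.23 and 0.02. Of 10 rod markers, 8 had probes and all 8 were above background on all 6 arrays. Of bipolar markers outside the set, the transcription factors Otx2 and Isl1 were above background on all 6 arrays, while the probes of Car8, Hcn4 and Syt2 were on 0 arrays and Bhlhe22 and Cabp5 were not analysed here. Knockout replicate 1 carried the most lens RNA, with a summed normalized signal of 51900 over 14 lens genes against 1370 to 7930 on the other arrays. Wild-type replicate 3 correlated least with its own group across probes (median r of 0.9608, against 0.9703 to 0.9868 for the other arrays).

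The upstream sequences of 3 members are shown because they separate the set by base composition, a feature that played no part in choosing it. The sequences are RefSeq's 250 bases before an annotated start, the outermost where a gene has several, in build GRCm38.p6, written 5′ to 3′ on the gene's strand. Capitals mark TAATCC, the core bound by OTX2 and CRX, and CAGATG, 1 form of the E-box bound by basic helix-loop-helix factors. These were among the 6-base words searched on both strands, which were chosen after the sequences had been seen.
Trpm1, chr7:64153585-64153834, + strand: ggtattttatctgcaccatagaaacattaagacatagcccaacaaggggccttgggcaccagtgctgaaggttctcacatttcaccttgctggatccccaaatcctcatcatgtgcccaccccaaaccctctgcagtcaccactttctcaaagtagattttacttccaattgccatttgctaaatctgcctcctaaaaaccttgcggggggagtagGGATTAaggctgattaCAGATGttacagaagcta
Pcp2, chr8:3625548-3625797, - strand: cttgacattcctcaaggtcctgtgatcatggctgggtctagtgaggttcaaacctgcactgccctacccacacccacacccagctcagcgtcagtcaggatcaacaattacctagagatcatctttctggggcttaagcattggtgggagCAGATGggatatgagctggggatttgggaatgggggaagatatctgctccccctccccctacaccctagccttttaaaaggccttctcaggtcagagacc
Prkca, chr11:108343889-108344138, - strand: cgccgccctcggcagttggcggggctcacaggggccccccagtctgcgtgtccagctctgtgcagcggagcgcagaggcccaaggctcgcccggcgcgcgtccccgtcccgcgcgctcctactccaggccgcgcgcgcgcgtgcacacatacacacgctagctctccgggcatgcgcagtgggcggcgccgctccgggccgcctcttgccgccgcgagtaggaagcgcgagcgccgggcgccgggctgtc
The Trpm1 window had 46.0% G and C and 1 CpG, and the Pcp2 window 52.8% and 1 CpG, against 76.8% and 39 CpGs in that of Prkca. Over all 32841 RefSeq windows of this length the medians were 52.4% and 6 CpGs. RefSeq listed 14 windows for 9 of the 10 members, with Rgs11 as the exception. The second Trpm1 window held 4 CpGs and the other 3 Pcp2 windows 0 to 2. The windows of Grm6, Nyx and Gpr179 held 4, 2 and 2 CpGs, and those of Gnao1 and Rgs7 held 36 and 22. Gng13 had a window of each kind, with 2 and 25. The OTX2 and CRX core was present in 1 member window, that of Trpm1, where it begins 34 bases before the start, and in 6.3% of all windows. CAGATG lay 18 bases before the Trpm1 start and 100 bases before the Pcp2 start, and was present in 14.4% of all windows. A match describes these letters only, and which start is used in these samples was not tested.

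None of the ON bipolar genes passed the test between knockout and wild-type retina. By limma, 0 of the 13 member probes that were above background on at least 3 arrays had an adjusted p under 0.05, while 435 of all 19921 tested probes did (2.18%, made up of 0.653% higher and 1.53% lower in knockout). At an unadjusted p under 0.05 there were 3 of the 13, against 11.7% of all tested probes. By sign, 7 member probes were higher and 6 lower in knockout arrays, with a median log2 change of 0.06, beside 0.03 over all tested probes. The 4 remaining probes were not tested: 1 of Trpm1 and 2 of Gnao1 were above background on 0 arrays, and 1 of Nyx on 2. With 13 probes, a count of 0 is near that background, and nothing particular to the set is read from it. In bulk retina, fewer bipolar cells and less RNA per cell cannot be told apart.

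**Figure D1:**
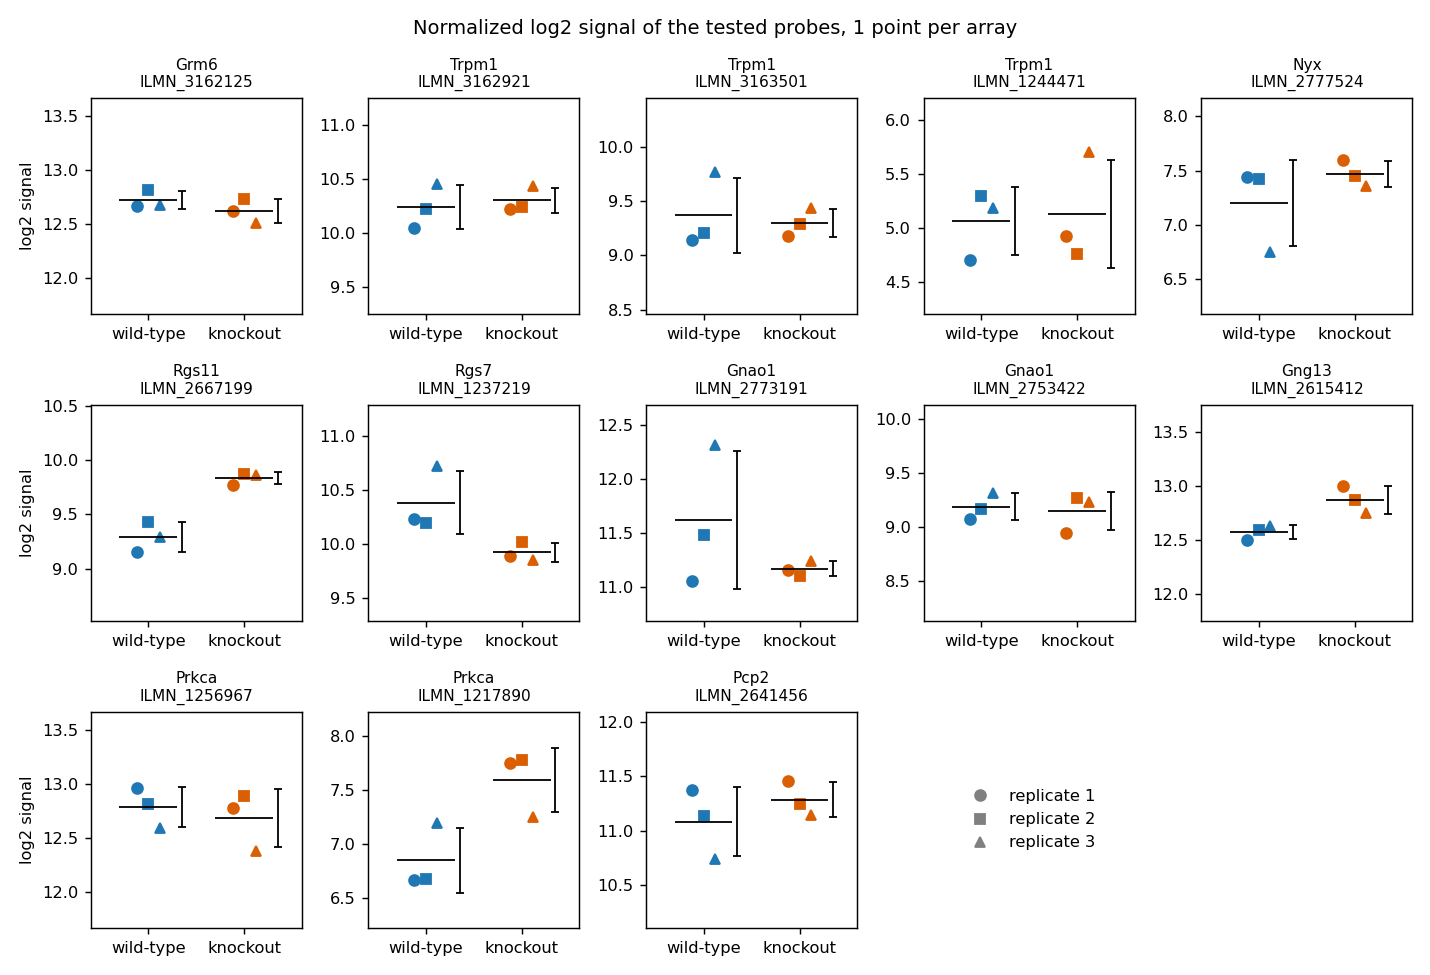
Normalized log2 signal (vertical axes, each spanning the same range of 2 log2 units) of the 13 tested member probes, with blue points for wild-type and orange points for knockout arrays, lines for group means and bars for the SD. The knockout points of Rgs11, of Gng13 and of the dimmer Prkca probe lie above all wild-type points, those of Rgs7 lie below, and the groups overlap in the other 9 panels.

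Grm6, the glutamate receptor at the head of the cascade, was among the steadiest members. Its only probe (ILMN_3162125) read 12.67, 12.82 and 12.68 on the log2 scale in wild-type replicates 1 to 3 and 12.62, 12.73 and 12.52 in knockout replicates 1 to 3. The groups overlapped, with knockout replicate 3 lowest and wild-type replicate 2 highest. The group means were 12.72 ± 0.0855 and 12.62 ± 0.109 (SD, n = 3 each), a difference of -0.10 (SE 0.161, limma adjusted p = 0.85). Its 95% interval ran from -0.47 to 0.27, which corresponds to 0.724-fold to 1.203-fold of the wild-type signal. Deposited signals before normalization lay between 5906.8 and 7523.1.

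Trpm1, the channel gene that closes the cascade, had 3 tested probes with changes near 0. The brightest (ILMN_3162921) read 10.05, 10.22 and 10.46 in wild-type and 10.23, 10.25 and 10.44 in knockout arrays, and the knockout values lay within the wild-type range. Its change was 0.06 (SE 0.178, adjusted p = 0.922, 95% interval -0.34 to 0.47). The next (ILMN_3163501) differed by -0.07, with wild-type replicate 3 highest at 9.77 and the other arrays between 9.14 and 9.44. A dim probe (ILMN_1244471), above background on 2 arrays of each group, differed by 0.07. The sign of each of these changed when some arrays were left out.

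Nyx encodes nyctalopin, a leucine-rich repeat protein on the outer face of the dendritic membrane. Its detected probe (ILMN_2777524) read 7.44, 7.42 and 6.75 in wild-type and 7.60, 7.45 and 7.36 in knockout arrays. Wild-type replicate 3 stood below the other 5 arrays, and the groups overlapped. The change was 0.27 (SE 0.221, adjusted p = 0.689, 95% interval -0.24 to 0.77), and without wild-type replicate 3 it was 0.04 (adjusted p = 0.95). The other Nyx probe (ILMN_3090954) was above background on 2 knockout arrays and on 0 wild-type arrays and was not tested.

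The RGS proteins that switch Go off lay on opposite sides of 0, and neither passed. Rgs11 (ILMN_2667199) read 9.15, 9.43 and 9.29 in wild-type arrays and 9.78, 9.88 and 9.87 in knockout arrays, so that all 3 knockout values were above all 3 wild-type values. Its means were 9.29 ± 0.137 and 9.84 ± 0.0562 (SD, n = 3 each), a change of 0.55 (SE 0.163, limma adjusted p = 0.19) or 1.46-fold, with a 95% interval of 1.13-fold to 1.89-fold. In the deposited signals, before normalization, the groups overlapped, since knockout replicate 1 at 789.1 was below wild-type replicate 2 at 794.8. Over 19 alternative settings the Rgs11 change stayed between 0.48 and 0.62, and its adjusted p between 0.0658 and 0.577. Settings that alter only the filter, the variance or the threshold leave the change itself as it was.

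Rgs7, a paralogue of Rgs11 that is also used by many other neurons, was the only member gene whose knockout values were all lower. Its probe (ILMN_1237219) read 10.24, 10.20 and 10.72 in wild-type arrays and 9.89, 10.02 and 9.86 in knockout arrays. The means were 10.38 ± 0.293 and 9.92 ± 0.0873 (SD, n = 3 each), a change of -0.46 (SE 0.193, limma adjusted p = 0.395) or 0.727-fold, with a 95% interval of 0.536-fold to 0.985-fold. Wild-type replicate 3 was highest, and without it the change was -0.29 (adjusted p = 0.479). The difference between the changes of Rgs7 and Rgs11 was not tested.

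Of the G protein subunits, Gng13, the gamma subunit that is paired with the beta subunit Gnb3 in ON bipolar cells, was higher on all 3 knockout arrays. It read 12.50, 12.59 and 12.63 in wild-type and 13.00, 12.87 and 12.75 in knockout arrays (ILMN_2615412). The groups did not overlap before normalization either, with deposited signals of 5544 to 6443.6 in wild-type and 7616.2 to 7873 in knockout arrays. The change was 0.30 (SE 0.162, limma adjusted p = 0.517) or 1.23-fold, and its 95% interval, 0.953-fold to 1.58-fold, included no difference. Non-overlapping groups were seen in 4 of the 13 member probes, 3 higher and 1 lower in knockout, and in 18.1% of all tested probes (9.28% higher and 8.84% lower).

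Gnao1, which encodes the alpha subunit of Go and is active in many kinds of neuron, had 2 tested probes that were not alike. The brightest probe (ILMN_2773191) read 11.06, 11.48 and 12.31 in wild-type arrays but only 11.16, 11.10 and 11.24 in knockout arrays. Wild-type replicate 3 was far above all others, and wild-type replicate 1 was the lowest of the 6. The change was -0.45 (SE 0.293, adjusted p = 0.595) with all arrays, -0.10 (adjusted p = 0.859) without wild-type replicate 3 and -0.72 (adjusted p = 0.246) without wild-type replicate 1. A second probe of the gene (ILMN_2753422) read between 9.08 and 9.32 in wild-type and between 8.95 and 9.27 in knockout arrays, a change of -0.04 (adjusted p = 0.951) that was 0.025 without wild-type replicate 3.

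**Figure D2:**
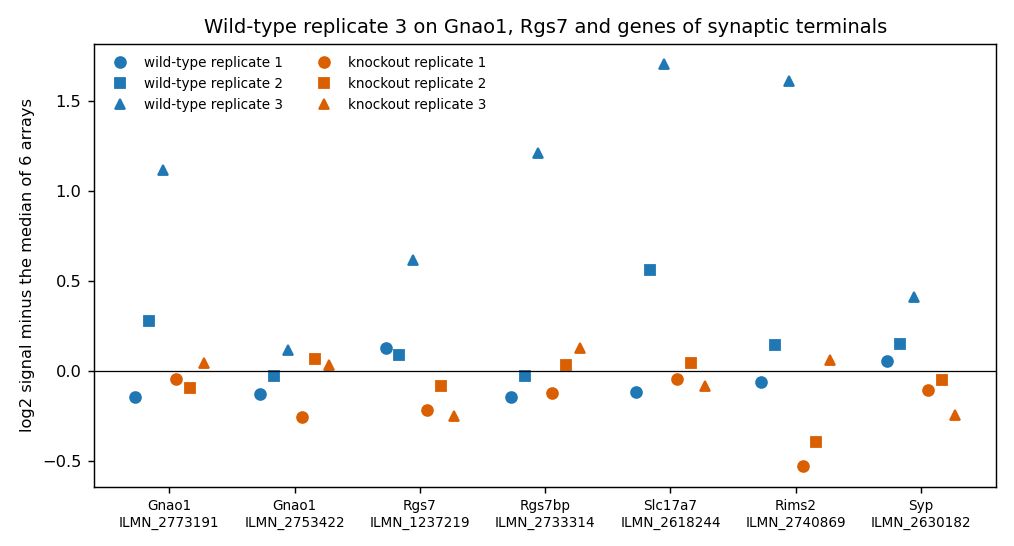
Log2 signal minus the median of the 6 arrays (vertical axis) for 2 Gnao1 probes, Rgs7, Rgs7bp and the synaptic terminal genes Slc17a7, Rims2 and Syp, with 1 point per array. Wild-type replicate 3 (blue triangles) is the highest array for all 7 probes.

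The same array was high for some other genes of synapses, of which Slc17a7, Rims2 and Syp were picked after their values were seen. The brighter probe of Rgs7bp, the membrane anchor of RGS7, read 11.81 on wild-type replicate 3 and 10.45 to 10.72 elsewhere, while on its dimmer probe knockout replicate 3 was highest. Slc17a7, the vesicular glutamate transporter of photoreceptors and bipolar cells, read 13.32 against 11.51 to 12.18, and Rims2, a protein of the active zone, 11.93 against 9.79 to 10.46. The summed signal of 16 photoreceptor ribbon synapse genes was 42000 on this array and 26400 to 31100 on the others. Without Slc17a7, Rims2 and Syp, the sum of the remaining 13 was 10800 on this array and 9890 to 12400 on the others. Wild-type replicate 3 was the highest array for 8 of the 16 genes and the lowest for 1, Unc13b. How often this array is highest over all tested probes was not computed, so nothing particular to these genes is read from the count.

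Prkca and Pcp2 are widely used as markers of bipolar cells in the mouse, Prkca of rod bipolar cells. Prkca encodes the protein kinase C isoform by which these cells are stained, and its brightest probe (ILMN_1256967) read 12.96, 12.82 and 12.59 in wild-type and 12.78, 12.89 and 12.38 in knockout arrays. The groups overlapped, and the change was -0.11 (SE 0.198, adjusted p = 0.875, 95% interval -0.55 to 0.34). A dimmer Prkca probe (ILMN_1217890) read 6.67, 6.68 and 7.20 in wild-type and 7.74, 7.78 and 7.25 in knockout arrays, so that the groups did not overlap, though wild-type replicate 3 and knockout replicate 3 nearly met. Its change of 0.74 (SE 0.224, limma adjusted p = 0.201) was the largest of the 13 and corresponds to 1.68-fold, with a 95% interval of 1.18-fold to 2.38-fold. This probe passed under 1 of 18 alternative settings, array weights (0.996, adjusted p = 0.0075), which gave knockout replicate 2 a weight of 5.62 and wild-type replicate 3 a weight of 0.291. The difference between the changes of the Prkca probes was not tested.

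Pcp2, a modulator of Go found in rod bipolar cells, some ON cone bipolar cells and cerebellar Purkinje cells, read 11.37, 11.14 and 10.74 in wild-type and 11.46, 11.24 and 11.15 in knockout arrays (ILMN_2641456). Wild-type replicate 3 was the lowest array and knockout replicate 1 the highest. The groups overlapped on this scale but not in the deposited signals, which were 1697.3 to 2510.6 in wild-type and 2573.1 to 2578.6 in knockout arrays. The change was 0.20 (SE 0.207, adjusted p = 0.753, 95% interval -0.27 to 0.67), and without wild-type replicate 3 it was 0.03 (adjusted p = 0.962).

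**Figure D3:**
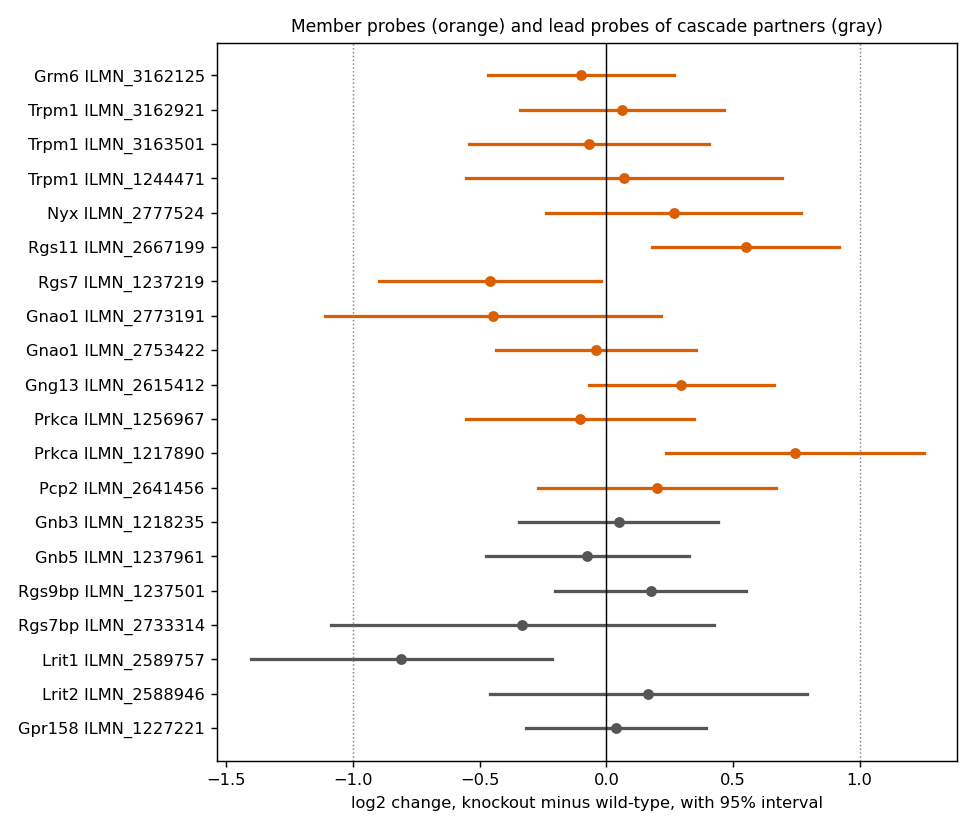
Log2 change, knockout minus wild-type (horizontal axis), with its 95% interval, for the 13 tested member probes in orange and the brightest probe of each of 7 cascade partners in gray. Dotted lines mark a 2-fold change either way, and 11 of the 13 member intervals lie between them, all but those of Gnao1 (ILMN_2773191) and of the dimmer Prkca probe.

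The intervals show what these arrays could and could not resolve. For 11 of the 13 member probes the 95% interval lay within a 2-fold change in either direction, as it did for 82% of all tested probes. The exceptions were the brighter Gnao1 probe, which reached -1.11, and the dimmer Prkca probe, which reached 1.25. The member probes had a median residual SD of 0.231 between arrays of a group, against 0.25 over all tested probes. A p that misses the threshold does not show that the signal was alike in both groups, and for Grm6 and Trpm1 the intervals of the brightest probes still allow changes of up to 0.47 on the log2 scale.

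**Figure D4:**
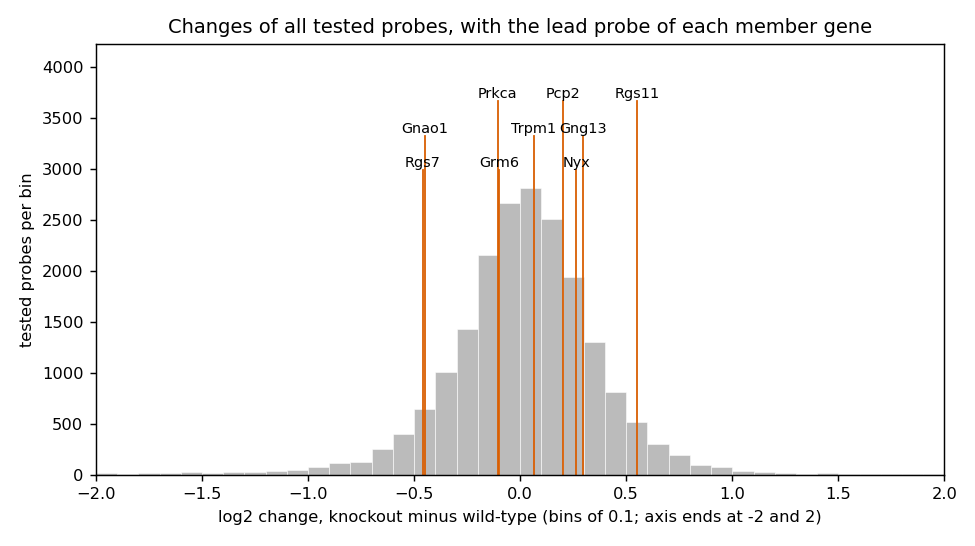
Number of tested probes per bin of 0.1 (vertical axis) by log2 change, knockout minus wild-type (horizontal axis, ending at -2 and 2), with an orange line at the change of the brightest probe of each of the 9 member genes. Member changes run from -0.46 for Rgs7 to 0.55 for Rgs11, around a median of 0.06.

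Across the 6 arrays the member genes did not vary as 1 unit. Over these arrays, which share the group difference and were normalized together, Nyx and Pcp2 went up and down together (Pearson r of 0.946 between their brightest probes), and Rgs7 and Gnao1 did so too (0.85). Nyx and Gnao1 ran opposite to each other (-0.941), as did Trpm1 and Prkca (-0.893). Gnao1 read 12.31 on wild-type replicate 3 and 11.06 to 11.48 elsewhere, and that array was also the highest for Rgs7 and the lowest for Nyx. The r values of Gnao1 with Rgs7 and Nyx thus rest largely on this array, and r without it was not computed. Rgs11 and Gng13 had an r of 0.84, while Grm6 had none above 0.652 with another member. Of the 3 wild-type arrays, replicate 3 was the farthest from the group mean in 6 of the 9 genes. Its share over all tested probes was not computed. All these values describe 6 arrays and carry no test. Among 9485 named genes above background on all arrays, the profiles most like that of Grm6 were those of Ccser2, Rapgef2, Ate1, Bicral and Narf, with r between 0.984 and 0.9938 over the 6 arrays.

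The other genes of the cascade gave a similar picture, with 0 of 7 tested cascade partners passing, beside 2.18% of all tested probes, and a median change of 0.04. Lrit3, also on the list, was not analysed here. Gnb3, the beta subunit partner of Gng13, read 11.97 to 12.29 in wild-type and 12.09 to 12.34 in knockout arrays, a change of 0.05 (SE 0.173, adjusted p = 0.939). Gnb5, the obligate partner of RGS7 and RGS11, differed by -0.08 (adjusted p = 0.905) and on its other tested probe by -0.02. Rgs9bp, a membrane anchor of RGS9 in rods that also binds RGS11, was at 0.18 (adjusted p = 0.727) and on its other probe at 0.09. Rgs7bp was at -0.33 (adjusted p = 0.743) and on its dimmer probe at 0.18. Gpr158, the closest relative of Gpr179, was at 0.04 (adjusted p = 0.95) and on its other tested probes at 0.17 and 0.07. Lrit2 was at 0.17 (adjusted p = 0.854).

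Lrit1, a leucine-rich repeat protein of photoreceptor synapses, had the widest difference among the partners. Its brighter probe (ILMN_2589757) read 9.98, 9.61 and 9.16 in wild-type and 8.56, 8.58 and 9.18 in knockout arrays, and the groups overlapped through knockout replicate 3 alone. The change was -0.81 (SE 0.262, limma adjusted p = 0.245), and the dim probe of the gene was at 0.23. With array weights the brighter probe passed (-1.06, adjusted p = 0.0106).

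Markers of bipolar cell identity did not pass either. Of 12 tested bipolar transcription factors (15 on the list), 0 passed, beside 2.18% of all tested probes. By sign 8 were higher and 4 lower, with a median change of 0.11. Over all 19921 tested probes, 10726 were higher and 9195 lower. Otx2, which is needed for bipolar cell fate and was chosen after its values were seen, as was Isl1, was at 0.18 (adjusted p = 0.745). Isl1, a LIM factor of ON bipolar, amacrine and ganglion cells, was at -0.08 (adjusted p = 0.9). The smallest p-values of the list belonged to Irx6, a factor of OFF bipolar cells, at 0.47 (adjusted p = 0.266), Lhx4 at 1.21 (adjusted p = 0.423) and Lhx3 at -0.46 (adjusted p = 0.428), whose other tested probe was at -0.17. The Lhx4 values spread widely, from 7.63 to 9.28 in wild-type and from 8.80 to 10.48 in knockout arrays, with replicate 3 lowest in both groups. Of 13 tested genes among the other bipolar markers (17 on the list), 0 passed, 10 were higher and 3 lower by sign, with a median of 0.15. In lists this small a count of 0 is near the share of 2.18%, and nothing particular to these markers is read from it. Strip2 was at -0.62 (adjusted p = 0.152), the potassium channel subunit Kcng4 at -0.89 (adjusted p = 0.262) and the neuropeptide Cck at 0.76 (adjusted p = 0.33). On these probes all 3 knockout values of Strip2 and of Kcng4 were below all wild-type values, while another Kcng4 probe was at 0.18 (adjusted p = 0.799). Those of Scgn and Gabrr1, named after their values were seen, were all above the wild-type values, at 0.22 (adjusted p = 0.643) and 0.63 (adjusted p = 0.391). Another Gabrr1 probe was at 0.11 with overlapping groups, and the other tested Scgn probes were at 0.49 and 0.37. On the brightest probes, non-overlap in either direction was thus seen in 4 of the 13 genes, beside 18.1% of all tested probes. With array weights Strip2 passed (-0.64, adjusted p = 0.0311).

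Lists of the cells around ON bipolar cells were read on the same arrays. Among 16 tested photoreceptor ribbon synapse genes, which include the presynaptic partners of the cascade, 0 passed, beside 2.18% of all tested probes. Their median change was -0.06. The smallest p-values were those of Rims2 at -0.85 (adjusted p = 0.459), Syp at -0.34 (adjusted p = 0.494) and Cabp4 at 0.36 (adjusted p = 0.499). Of 9 tested amacrine markers, which share Gnao1 and Rgs7 with bipolar cells, 0 passed, with a median of 0.10. In the lists of horizontal cells (3 tested), ganglion cells (5), rods (8), Müller glia (7), lens (14), pigment epithelium (6) and erythrocytes (5) 0 passed on the brightest probe of each gene. For each list without a call, 0 is near the share of 2.18%, and nothing particular to its cells is read from it. On dimmer probes, Sncg of the ganglion cell list fell by 1.84 (limma adjusted p = 0.00103), while its brightest probe was at 0.46. A dim Hbb-bt probe of the erythrocyte list passed at -0.91 (adjusted p = 0.0345), above background on the 3 wild-type arrays and on 0 knockout arrays, and the brightest was at 0.68. Of 9 cone markers 2 rose (Arr3 and Gnat2) and 1 fell (Pde6c), beside 2.18% of all tested probes in either direction, with a median of 0.14. Of 11 microglia markers 9 were lower by sign, beside 9195 of all 19921 tested probes, with a median of -0.57. All knockout values lay below all wild-type values for 7 of them, beside 8.84% of all tested probes. As lower, 2 of the 11 passed, beside 1.53% of all tested probes. Lyz2 was at -0.91 (limma adjusted p = 0.0224), on a probe above background on the 3 wild-type arrays but on only 1 knockout array. Fcer1g was at -2.94 (limma adjusted p = 0.000146) but was above background on the 3 wild-type arrays and on 0 knockout arrays. Thus Fcer1g entered the test through wild-type only, and the wild-type arrays alone were enough to admit Lyz2. The part of these differences in the member values was not tested.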

How the data were processed

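Retinal RNA was prepared with the RNeasy Mini Kit and amplified and labelled with the Ambion Illumina TotalPrep kit, per the labels' protocols, and arrays were read out with GenomeStudio, per the submitters' processing notes. Per the file headers, the deposited non-normalized values are linear intensities, each with its detection p-value. Their normalized table equals it minus 1 constant per array (57.2 to 69.1, largest deviation 0.1), and the series value table is identical to that.

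The non-normalized intensities were processed with neqc of limma 3.58.1 in R 4.3.3 (offset of 16, quantile normalization, log2). Probes with detection p under 0.05 on at least 3 of 6 arrays were tested singly (19921 probes) with lmFit and eBayes, 2-sided, with group as the only term and Benjamini-Hochberg adjustment over all tested probes at 0.05. With several tested probes, the one with the highest mean signal stands for a gene in lists. Array number, 3 per group, limits the precision, and the offset compresses changes of dim probes. Symbols came from the platform annotation. The fit was also run on simulated data in which every probe varied independently. That run held no effects shared by the probes of an array, so it does not cover such effects.

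The members, lists and motifs were chosen with earlier results of these data known. Named are all members and cascade partners, up to 3 genes with the smallest p in each bipolar and ribbon synapse list, and the genes that passed in the others. The comparison without knockout replicate 1 and wild-type replicate 3 together was chosen after seeing the data. Figures were drawn with matplotlib 3.10.9 in Python 3.11.15.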

Additional observations from a re-analysis of the deposited data

How the results depend on the processing

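The count of 0 member probes passing held under 18 of 19 alternatives, and array weights gave 1, the dimmer Prkca probe (0.9956, adjusted p = 0.0075). An added minimum fold change, among the 18, could not have raised a count of 0. The count of 0 among the 32 cascade partner and bipolar genes tested also held under 18 and was 2 with array weights (Lrit1 and Strip2). Over all tested probes the count of 435 was 223 with the authors' table (28.7% higher), 920 with array weights (41.1% higher, against 29.9% of the 435), 202 to 382 when 1 array was left out (14.6% to 32.7% higher), and 212 (19.8% higher) without knockout replicate 1 and wild-type replicate 3 together. It was 268 and 202 without wild-type replicates 1 and 2, and 237, 226 and 270 without knockout replicates 1, 2 and 3, in fits with fewer arrays. With the number from the titles as a replicate block it was 282 (19.1% higher), and 0 members and 0 list genes passed. Only 2 numbers occur in both groups, and the deviations of those pairs from their group means correlated at -0.0172 and -0.275. Replicates numbered alike here, which follows the order of the samples, correlated at 0.276, 0.314 and 0.365 and were not fitted as pairs. Whether title number or order marks a pairing cannot be told from the labels.

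Among single probes, Grm6, Rgs11, Rgs7, Gng13, the brighter Gnao1 probe and the dimmer Prkca probe kept their sign under every alternative run. Alternatives that alter only the filter, the variance or the threshold cannot change a sign. The others changed sign in 20 cases, each with an adjusted p of 0.618 or more. With array weights the brighter Prkca probe was at 0.0020, the second Gnao1 probe at 0.045, and the Trpm1 probes ILMN_1244471 and ILMN_3163501 at -0.23 and 0.024. Leaving out 1 array at a time gave -0.21 to 0.049 for the brighter Prkca probe, -0.10 to 0.061 for the second Gnao1 probe, and -0.20 to 0.25 (ILMN_1244471), -0.035 to 0.17 (ILMN_3162921) and -0.18 to 0.13 (ILMN_3163501) for Trpm1. With the block, the second Gnao1 probe was at 0.13, Nyx at -0.028, Pcp2 at -0.061 and ILMN_3163501 at 0.19. Without knockout replicate 1 and wild-type replicate 3 together these were 0.13, -0.028, -0.058 and 0.19. Changes in both settings rest on the same remaining arrays, because the dropped arrays have title numbers found in 1 group only. The settings are therefore not separate checks. The causes were not tested. Dim probes limit what can be read: the tested Trpm1 probe ILMN_1244471 was above background on 4 of 6 arrays.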
